A study of Mus musculus with 20 samples.

Results

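The genes described here are 10 neutrophil granule genes, *S100a8*, *S100a9*, *Ngp*, *Ltf*, *Camp*, *Lcn2*, *Elane*, *Mpo*, *Prtn3* and *Mmp8*, of the 24411 genes in the deposited expression tables. They were chosen as known neutrophil granule and cytosol products, and were selected on their measured levels, since the P22 and P7 values of these same libraries were known when they were picked. Their levels, genotype differences and calls are therefore given as descriptions, with no p-value. The ranking of genes by likeness to them and the fits that leave out pools with high or low levels of them also rest on these levels, and are descriptions too. The libraries came from the sensory epithelium and spiral ganglion of the mouse cochlea, pooled from 4 mice per library according to the labels. Controls were *Bai1* tm2b/+ mice and mutants were *Bai1* tm2b/tm2b mice, so every library carried at least 1 tm2b allele, which lacks part of *Adgrb1* (also called *Bai1*, a phagocytosis and synapse adhesion receptor) and keeps a lacZ cassette, throughout the body. The strain was C57BL/6N and both sexes were used. At postnatal day 22 (P22) there were 3 libraries per genotype. At P7 there were 3 per genotype deposited as estimated counts (replicates 5 to 7) and 4 per genotype deposited as rounded TPM (length-scaled abundances with a fixed total, replicates 1 to 4), from separate batches. The values of the 3 sets are on different scales and are set side by side without a test.

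Neutrophils mature in the bone marrow through promyelocyte, myelocyte and band stages, and make their granule proteins in sequence. Azurophil granule proteins (*Mpo*, myeloperoxidase; *Elane*, neutrophil elastase; *Prtn3*, proteinase 3) are transcribed early, at the promyelocyte stage. Specific granule proteins (*Ngp*, neutrophilic granule protein; *Ltf*, lactoferrin; *Camp*, cathelicidin; *Lcn2*, lipocalin-2, which binds bacterial siderophores; and the collagenase *Mmp8*) follow at the myelocyte stage. *S100a8* and *S100a9* form the calprotectin heterodimer and are abundant in the cytosol of neutrophils through to the blood. Mature blood neutrophils have largely ceased to transcribe the azurophil genes.

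The 10 genes lie on 5 chromosomes of the mouse genome (GRCm38, GENCODE annotation). *S100a8* (chr3:90668978-90670035) and *S100a9* (chr3:90692632-90695721, opposite strand) are 22.6 kb apart, and *Prtn3* (chr10:79874476-79883174) and *Elane* (chr10:79886247-79888215) are 3.07 kb apart. *Camp* (chr9:109847379-109849617), *Ngp* (chr9:110419747-110423012) and *Ltf* (chr9:111019271-111042767) follow each other on chromosome 9, with *Mmp8* (chr9:7558456-7568485) far away on the same chromosome. *Lcn2* is at chr2:32384633-32388252 and *Mpo* at chr11:87793581-87804413. Exons of *Prtn3* overlap exons of the opposite-strand gene *Plppr3*, and exons of *Mpo* overlap the opposite-strand gene *Gm11505*. Whether the counting used strand is not given in the sources used here, so reads of each overlapping pair cannot be told apart.

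Bases upstream of the RefSeq starts (assembly GRCm38.p6) are shown for 6 of the genes, as examples of the cytosolic, azurophil and specific classes, since the 10 genes moved together in some pools. Each is printed 5′ to 3′ on the strand of its gene, and stops before the first GENCODE transcript start. Capitals mark matches, on either strand, to TTGCNNAA (a C/EBP core, C/EBP factors act from the myeloid progenitor on), GAGGAAGT (a PU.1 core) or TGTGGT (a Runx core).
S100a9, chr3:90695722-90695971, minus strand: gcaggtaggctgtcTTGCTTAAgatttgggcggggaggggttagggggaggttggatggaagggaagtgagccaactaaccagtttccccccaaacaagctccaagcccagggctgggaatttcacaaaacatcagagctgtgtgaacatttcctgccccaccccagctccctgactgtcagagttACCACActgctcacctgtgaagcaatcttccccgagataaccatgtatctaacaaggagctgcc
Elane, chr10:79886062-79886246, plus strand: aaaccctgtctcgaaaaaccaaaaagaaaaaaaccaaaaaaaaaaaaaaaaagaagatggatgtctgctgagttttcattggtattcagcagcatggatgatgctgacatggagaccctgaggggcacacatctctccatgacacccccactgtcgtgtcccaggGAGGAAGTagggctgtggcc
Mpo, chr11:87793534-87793580, plus strand: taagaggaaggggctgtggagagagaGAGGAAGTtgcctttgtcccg
Ngp, chr9:110419558-110419746, plus strand: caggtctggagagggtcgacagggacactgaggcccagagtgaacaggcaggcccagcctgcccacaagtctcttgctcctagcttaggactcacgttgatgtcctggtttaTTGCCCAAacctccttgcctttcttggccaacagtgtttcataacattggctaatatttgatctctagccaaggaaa
Ltf, chr9:111019042-111019270, plus strand: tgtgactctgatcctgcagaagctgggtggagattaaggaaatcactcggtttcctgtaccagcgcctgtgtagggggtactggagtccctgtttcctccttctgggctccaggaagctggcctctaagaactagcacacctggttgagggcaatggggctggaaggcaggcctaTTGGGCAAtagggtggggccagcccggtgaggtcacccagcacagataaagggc
Mmp8, chr9:7558179-7558428, plus strand: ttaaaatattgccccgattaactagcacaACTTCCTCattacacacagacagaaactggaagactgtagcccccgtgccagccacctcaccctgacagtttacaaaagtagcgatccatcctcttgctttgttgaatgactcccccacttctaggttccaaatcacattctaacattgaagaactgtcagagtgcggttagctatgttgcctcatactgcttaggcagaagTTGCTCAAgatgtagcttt
Within the 250 bases upstream of the RefSeq start, searched on both strands, 5 of the 10 genes held the PU.1 letters, against 2.44% of all 32851 RefSeq promoters of the same length. These were all of the azurophil genes (*Elane*, *Mpo*, *Prtn3*) together with *S100a8* and *Mmp8*. The C/EBP letters were held by 5 of the 10 genes, against 9.56% of all promoters. These were *S100a9*, *Ngp*, *Ltf*, *Lcn2* and *Mmp8*, and no azurophil gene was among them. The Runx letters were in *S100a9* alone, against 14% of all promoters. *Camp* held none of the motifs. A match of letters describes the window and is no evidence of a bound site.

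The libraries held between 31108551 and 58807173 estimated counts in the P7 counts set and between 35725985 and 40350413 at P22. The depth behind the rounded TPM is unknown. *Adgrb1*, measured over the whole gene and so also outside the deleted exons, was at 137 to 151 CPM (counts scaled to the library total, with TMM factors) in the P22 tm2b/+ libraries and 90.6 to 95.8 in the tm2b/tm2b libraries. In the P7 counts libraries it was at 35.5 to 61.6 and 23.7 to 34.3 CPM, and in the rounded TPM libraries at 7 to 12 and 9 to 12 TPM, where the genotypes overlapped. As a check of the tissue, the hair cell gene *Otof* was at 75.4 to 136 CPM at P22.

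All 10 genes were detected at P22, at low levels. Per length (CPM divided by the kilobases of the longest transcript) the order of the median levels in the tm2b/+ libraries was *S100a9* (3.48 CPM per kb), *S100a8* (3.10), *Ngp* (1.65), *Camp* (1.23), *Prtn3* (0.73), *Ltf* (0.515), *Lcn2* (0.348), *Mpo* (0.135), *Elane* (0.108) and *Mmp8* (0.035). The ranges of neighbours in this order overlapped for every pair, so that no neighbours were separated beyond their spread. In the P7 counts libraries of the same genotype the order began with *S100a9* (3.49), *S100a8* (2.51), *Camp* (1.98) and *Prtn3* (1.02). In the rounded TPM libraries the medians were 21.5 TPM for *S100a9*, 18 for *S100a8* and 12 for *Camp*, and at most 2.5 for the other 7 genes.

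At P22 the granule genes were high in the tm2b/tm2b pools 1 and 2 and low in the tm2b/tm2b pool 3 and in all tm2b/+ pools. The summed level of the 10 genes was 63.9 and 54.0 CPM in tm2b/tm2b pools 1 and 2, and 8.28 in pool 3. In the tm2b/+ pools it was 19.7, 7.44 and 9.12 CPM. Pool 3 of the mutants thus lay inside the range of the controls, and control pool 1 was above the other controls in 8 of the 10 genes. In bulk tissue, fewer or more cells of a type and less or more RNA per cell cannot be told apart. Among all genes tested at P22, 32.9%, 34.7% and 32.7% were above every tm2b/+ pool in tm2b/tm2b pools 1, 2 and 3. Of the 10 granule genes, 9, 10 and 1 were.

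**Figure D1:**
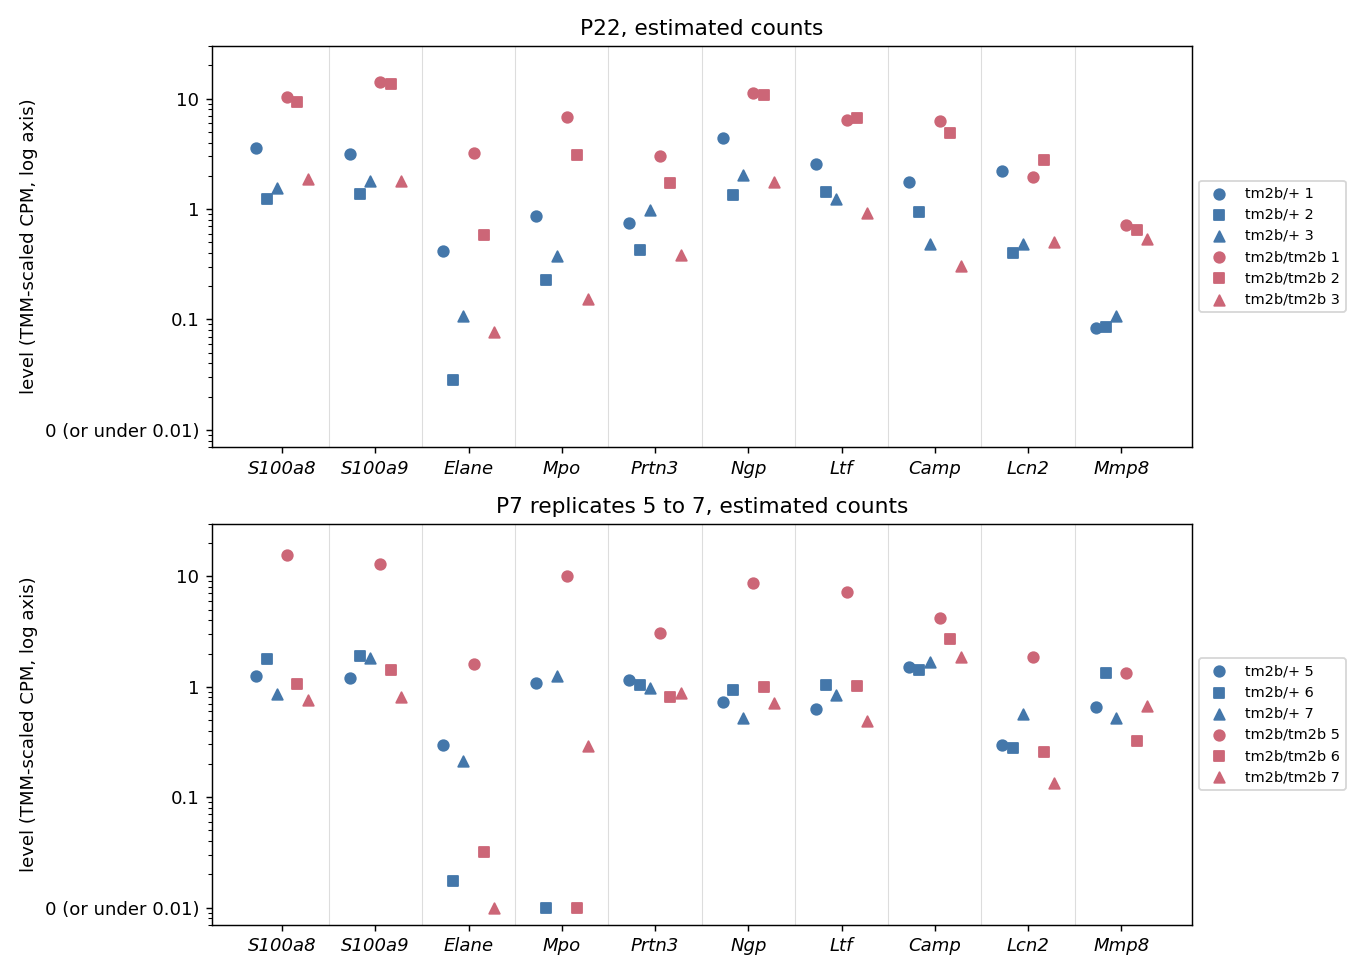
Level of each granule gene in each library, in TMM-scaled CPM on a log axis, at P22 (top) and in the P7 libraries deposited as counts (bottom). Blue is tm2b/+ and red is tm2b/tm2b, a symbol is 1 pool, and levels under 0.01 are drawn at the bottom tick. At P22 the red circle and square lie above the other pools in most genes, at P7 the red circle.

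The cytosolic pair moved together. *S100a8* was at 3.55, 1.24 and 1.54 CPM in the tm2b/+ pools 1 to 3, and at 10.3, 9.31 and 1.85 CPM in the tm2b/tm2b pools 1 to 3. *S100a9* was at 3.13, 1.36 and 1.81 CPM against 14.1, 13.6 and 1.80 CPM. For both genes, pools 1 and 2 were above every control and pool 3 was not. The log2 difference of tm2b/tm2b from tm2b/+ was 1.77 (SE 0.549) for *S100a8* and 2.23 (SE 0.597) for *S100a9*.

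The azurophil genes spread widely between pools. *Mpo* was at 0.859, 0.226 and 0.372 CPM in the controls and at 6.82, 3.09 and 0.152 CPM in the mutants, and *Elane* at 0.416, 0.0283 and 0.106 CPM against 3.21, 0.576 and 0.0762 CPM. *Elane* rested on few reads, with 15, 1 and 4 estimated counts in the controls and 131, 24 and 3 in the mutants. In both genes pool 1 stood above pool 2, and pool 3 was lower than the control median. *Prtn3* was at 0.748, 0.424 and 0.984 CPM against 2.99, 1.73 and 0.381 CPM. The log2 differences were 2.78 (SE 0.91) for *Mpo*, 2.79 (SE 1.09) for *Elane* and 1.24 (SE 0.587) for *Prtn3*.

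The specific granule genes were more alike in pools 1 and 2. *Ngp* was at 4.41, 1.33 and 2.02 CPM in the controls and 11.2, 10.7 and 1.75 CPM in the mutants. *Ltf* was at 2.58, 1.41 and 1.22 CPM against 6.38, 6.65 and 0.914 CPM, and *Camp* at 1.77, 0.933 and 0.479 CPM against 6.21, 4.92 and 0.305 CPM. *Lcn2*, which epithelial cells also make, was the gene with the least separation, with 2.19 CPM in control pool 1, above the 1.94 CPM of mutant pool 1. Its other values were 0.396 and 0.479 CPM in the controls and 2.76 and 0.508 CPM in mutant pools 2 and 3. The log2 differences were 1.61 (SE 0.583) for *Ngp*, 1.42 (SE 0.566) for *Ltf*, 1.85 (SE 0.762) for *Camp* and 0.77 (SE 0.665) for *Lcn2*.

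*Mmp8* had another pattern. It was at 0.0831, 0.0848 and 0.106 CPM in the controls (3, 3 and 4 estimated counts) and at 0.711, 0.648 and 0.533 CPM in the mutants (29, 27 and 21 counts), so that mutant pool 3, low in the other granule genes, was above every control as well. The groups did not overlap, which held for 15.6% of the 15443 genes tested with mutants above controls. *Mmp8* was the only one of the 10 genes to meet the rule for a call (adjusted p under 0.05, log2 difference over 0.5 and SE under 0.5), with a log2 difference of 2.74 (SE 0.453). The rule called 1.74% of all genes tested higher in tm2b/tm2b and 1.41% lower. The other 9 genes had SEs above 0.5. Leaving out any 1 library took the call of *Mmp8* away, with log2 differences between 2.65 and 2.86 and SEs that rose above 0.5. The fit without mutant pool 3, the mutant pool low in most of these genes, called 295 of the 15600 genes tested higher and 182 lower. In that fit, 7 other members met the rule (*Camp*, *Ltf*, *Mpo*, *Ngp*, *Prtn3*, *S100a8* and *S100a9*). That fit is singled out here by the levels of these same genes, so their calls in it are no separate evidence of a difference. With mutant pools 1 and 2 left out, none did. The median log2 difference of the 10 genes was 1.81, against 0.01 for all genes tested.

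In the P7 libraries in counts, the mutant pool 5 was high in the granule genes and the other mutant pools were not. The summed level was 66.3 CPM in tm2b/tm2b pool 5 and 8.62 and 6.58 CPM in tm2b/tm2b pools 6 and 7, against 8.79, 9.72 and 9.25 CPM in the tm2b/+ pools. Pool 5 was above every control in 9 of the 10 genes, against 33.3% of all genes tested. Pools 6 and 7 were above every control in 2 and 1 of the 10 genes, against 28.4% and 21.6% of all genes tested.

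*S100a8* was at 1.25, 1.78 and 0.858 CPM in the tm2b/+ pools 5 to 7, and at 15.6, 1.06 and 0.758 CPM in the tm2b/tm2b pools 5 to 7. *S100a9* was at 1.20, 1.88 and 1.81 CPM against 12.9, 1.41 and 0.803 CPM. The cytosolic pair was thus raised in a single mutant pool. *Ngp* was at 0.735, 0.941 and 0.524 CPM against 8.66, 0.994 and 0.714 CPM, *Ltf* at 0.626, 1.03 and 0.834 CPM against 7.15, 1.03 and 0.491 CPM, and *Lcn2* at 0.299, 0.279 and 0.572 CPM against 1.86, 0.256 and 0.134 CPM. For these genes mutant pools 6 and 7 were within, near or below the range of the controls.

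*Mpo* was at 1.09, 0 and 1.24 CPM in the controls and 9.98, 0 and 0.290 CPM in the mutants, with 0 counts in a pool of each genotype (control pool 6 and mutant pool 6). *Elane* was at 0.299, 0.0174 and 0.214 CPM against 1.62, 0.0321 and 0 CPM, and did not pass the filter on low counts. In control pool 6 and mutant pool 6 both azurophil genes were at 1 count or none, while *Ngp* and *Ltf* had 54 and 59 counts in the control and 31 and 32 in the mutant. *Prtn3*, also azurophil, was at 1.14, 1.05 and 0.977 CPM against 3.05, 0.801 and 0.870 CPM, so that its level in the pools with no *Mpo* was close to that in the others.

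*Camp* was detected in every pool. It was at 1.497, 1.41 and 1.69 CPM in the controls and at 4.18, 2.72 and 1.85 CPM in the mutants, so that the groups did not overlap, as for 5.59% of the 16026 genes tested with mutants above controls. *Mmp8* was at 0.653, 1.34 and 0.524 CPM against 1.32, 0.321 and 0.669 CPM, with its highest value in control pool 6. The non-overlap of *Mmp8* at P22 was therefore not present in these P7 libraries. The genotypes' log2 differences were 2.15 (SE 1.11) for *S100a8*, 2.23 (SE 0.949) for *Ngp*, 2.19 (SE 1.74) for *Mpo*, 0.93 (SE 0.319) for *Camp* and -0.13 (SE 0.564) for *Mmp8*. Of the 9 granule genes tested none was called, with a background of 0% of genes called in edgeR (763 genes had an unadjusted p under 0.05, and DESeq2 called 48 genes). Without mutant pool 5 the difference of the mean log2 summed level changed from 0.75 to -0.30.

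**Figure D2:**
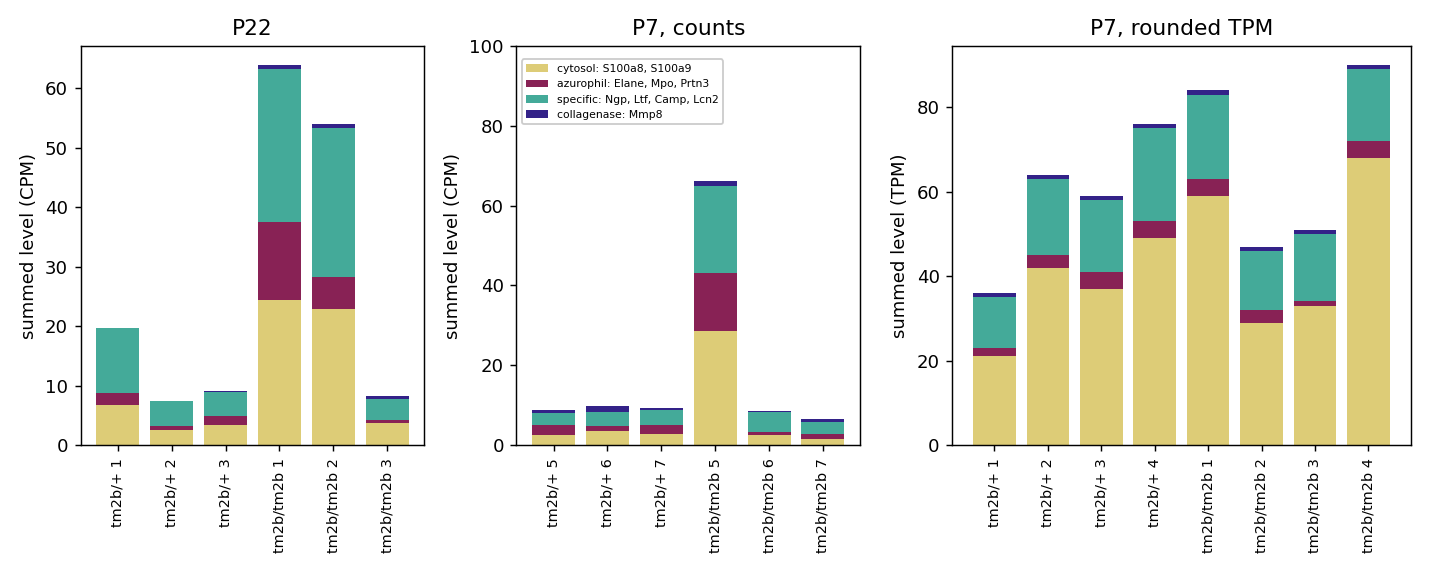
Summed level of the granule genes in each library, stacked by where the protein is stored, in CPM for the P22 and P7 counts libraries and in TPM for the P7 rounded TPM libraries. The axes differ between panels. Sums of 63.9 and 54.0 CPM at P22 and 66.3 CPM at P7 stand above the 6.58 to 19.7 CPM of the other libraries in counts, and sums of rounded TPM range from 36 to 90.

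In the P7 libraries in rounded TPM, the genotypes overlapped in all granule genes, and no single pool stood apart as in the other sets. *S100a8* was at 14, 21, 15 and 27 TPM in tm2b/+ pools 1 to 4 and at 32, 16, 19 and 31 TPM in tm2b/tm2b pools 1 to 4. *S100a9* was at 7, 21, 22 and 22 TPM against 27, 13, 14 and 37 TPM. Mutant pools 1 and 4 were above every control in both genes and mutant pools 2 and 3 were not. *Camp* went another way, at 10, 10, 14 and 17 TPM against 13, 10, 11 and 8 TPM, with its highest value in control pool 4. *Ngp* was at 1 to 5 TPM and *Prtn3* at 1 to 4 TPM. *Lcn2* was at 1 to 3 TPM, *Mmp8* at 1 TPM in every library, and *Ltf*, *Mpo* and *Elane* were listed at 0 or 1 TPM.

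Only *S100a8*, *S100a9* and *Camp* reached the mean of 5 TPM needed for the test, with log2 differences on the log2(TPM + 1) scale of 0.21 (SE 0.255), 0.20 (SE 0.403) and -0.35 (SE 0.203), and none was called. Here 0.596% of the 11740 genes tested were called higher. In the fit of both P7 batches with a batch term, the differences were 0.46 (SE 0.402) for *S100a8*, 0.37 (SE 0.41) for *S100a9* and 0.05 (SE 0.2) for *Camp*, none was called, and 0% of the 11721 genes tested were called by limma (2725 had an unadjusted p under 0.05).

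**Figure D3:**
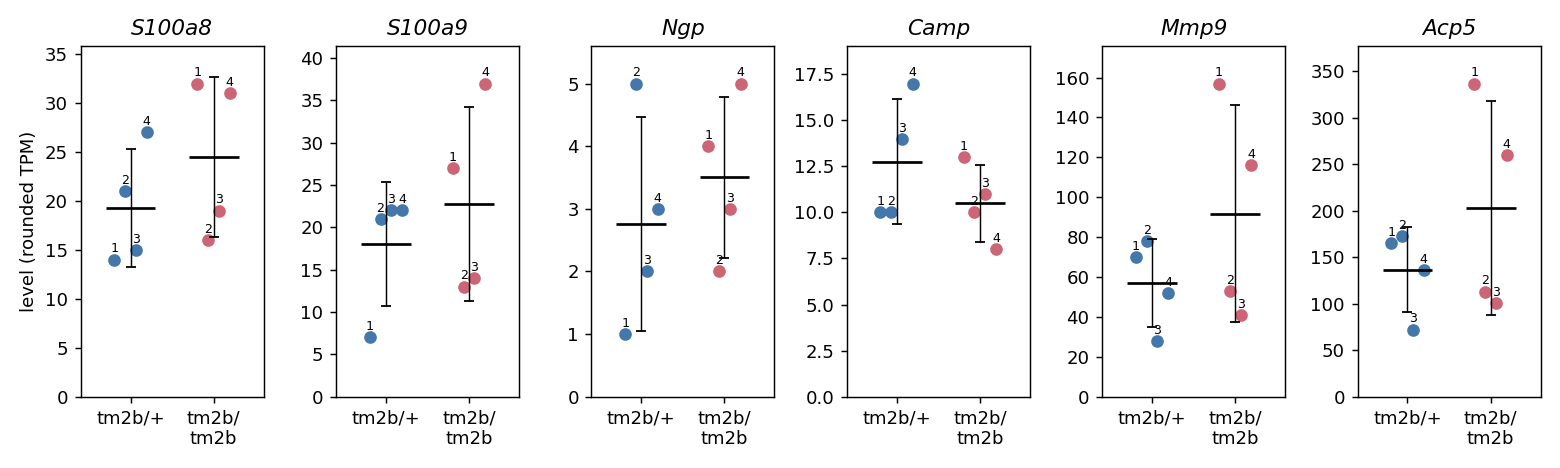
Levels in the P7 libraries deposited as rounded TPM, for 4 granule genes and for the osteoclast-linked genes Mmp9 and Acp5. Points are pools, numbered by replicate, lines are the group means and bars are the SD (n = 4). Mutant pools 1 and 4 are high in S100a8, S100a9, Mmp9 and Acp5, and not in Camp.

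The balance of early and late granule genes was read from the counts of *Elane* and *Mpo* (azurophil) against *Ngp* and *Ltf* (specific). Intervals are 95% Clopper-Pearson intervals and cover counting error only. At P22, *Elane* and *Mpo* made up 36.3% (33.5 to 39.2%) of the counts of these 4 genes in mutant pool 1 and 17.5% (15.0 to 20.2%) in mutant pool 2. In the other P22 pools the share was 15.4%, 8.49% and 12.9% in controls 1 to 3 and 7.89% in mutant pool 3. The intervals of mutant pool 1 lay above those of all other P22 pools, and that of mutant pool 2 overlapped those of control pools 1 to 3. Pools 1 and 2, alike in *Ngp* and *Ltf*, thus differed in this share beyond counting error. Most of its azurophil counts were of *Mpo* (278 and 129 in pools 1 and 2), whose reads cannot be told apart from those of *Gm11505*. *Elane*, with no such overlap, had 131 and 24 counts in these pools. With all 3 azurophil genes against *Ngp*, *Ltf*, *Camp* and *Lcn2*, the share was 33.6% (31.3 to 35.97%) in mutant pool 1, 17.7% (15.7 to 20.0%) in mutant pool 2 and 14.9% in mutant pool 3. In controls 1 to 3 it was 15.6%, 14.3% and 25.8% (20.1 to 32.3%). By this wider share mutant pools 1 and 2 still differed, but control pool 3 lay above mutant pool 2 and its interval overlapped that of mutant pool 1.

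At P7 the share was 42.3% (39.3 to 45.4%) in mutant pool 5, between 50.5% and 51.7% in control pools 5 and 7, and 19.4% (10.8 to 30.9%) in mutant pool 7. In control pool 6 it was 0.877% (0.0222 to 4.79%), from 1 of 114 counts, and in mutant pool 6 it was 1.56% (0.0396 to 8.40%). The interval of mutant pool 5 overlapped those of control pools 5 and 7. With all 3 azurophil genes the share was 40.1% in mutant pool 5, 44.5% and 40.2% in control pools 5 and 7, and 26.7% in mutant pool 7. It was 22.5% in control pool 6 and 14.3% in mutant pool 6, where the azurophil counts were nearly all *Prtn3*. The very low values above are thus those of *Elane* and *Mpo*. Reads of *Prtn3* cannot be told apart from those of the overlapping gene *Plppr3*, so these counts cannot show whether the whole class was low. The same limit holds for every share that includes *Prtn3*, also at P22. It holds as well for every share that includes *Mpo*, through the overlapping gene *Gm11505*. Within classes, *Ltf* made up 34.3% to 61.4% of the counts of *Ltf* and *Ngp* over all 12 libraries in counts, and *S100a9* 45.4% to 67.9% of those of *S100a8* and *S100a9*. Other ratios within a class varied more widely. *Mpo* had 0 counts beside 60 of *Prtn3* in control pool 6 and 370 beside 113 in mutant pool 5, and *Camp* had 12 beside 69 of *Ngp* in mutant pool 3 at P22 and 71 beside 22 in control pool 7 at P7.

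**Figure D4:**
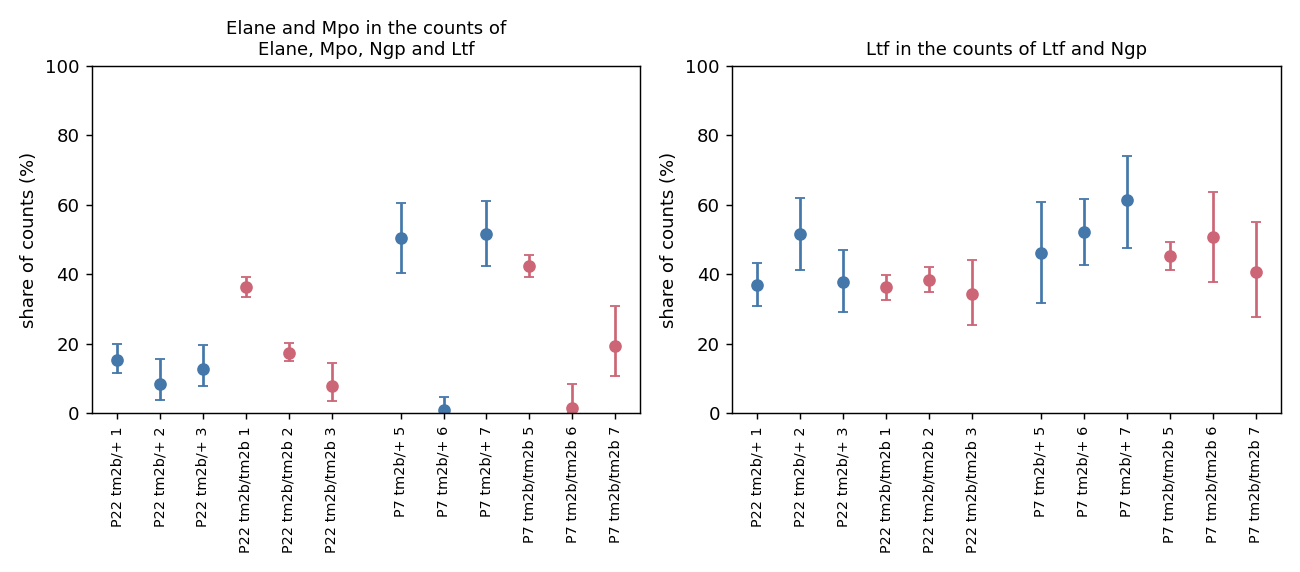
Share of Elane and Mpo in the counts of Elane, Mpo, Ngp and Ltf (left) and of Ltf in the counts of Ltf and Ngp (right), in percent, for each library in counts, with 95% Clopper-Pearson intervals. Blue is tm2b/+ and red is tm2b/tm2b. The share of Elane and Mpo runs from 0.877% to 51.7% and the share of Ltf from 34.3% to 61.4%. The share with all 3 azurophil genes, not drawn, runs from 14.3% to 44.5%.

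Other genes of the granule lists were examined in the same libraries. Of 7 other azurophil genes, 3 passed the filter at P22 and none was called, and of 10 other specific granule genes, 6 were tested and only *Lyz2* was called. *Lyz2* (lysozyme, which macrophages also make in quantity) was at 24.0, 23.9 and 20.0 CPM in the controls and 35.9, 35.4 and 32.0 CPM in the mutants, a log2 difference of 0.61 (SE 0.0899, adjusted p = 0.00389 in edgeR). Its groups did not overlap and mutant pool 3 was high too. The call was kept without any 1 library and lost without mutant pools 1 and 2 (adjusted p = 0.15 in edgeR). *Chil3*, a chitinase-like secreted protein of myeloid cells, was at 0.776, 0.226 and 0.399 CPM against 2.38, 2.86 and 0.355 CPM, with an adjusted p of 0.0735 in edgeR. Of the 13 mature neutrophil genes in the file, 6 were tested at P22 and none was called. In P22 mutant pools 1, 2 and 3, 6, 6 and 2 of the 7 azurophil genes were above every control. Of the 10 specific granule genes 7, 9 and 1 were, and of the 13 mature neutrophil genes 8, 9 and 2. In P7 mutant pool 5 it was 3 of 7, 9 of 10 and 11 of 13 genes. Among all genes tested it was 32.9%, 34.7% and 32.7% in the P22 pools and 33.3% in pool 5. The list counts include genes too low to be tested. *Cebpe*, which drives specific granule genes, was at 0.0981 CPM or less in every P22 library.

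Some genes of mature neutrophils differed between the sets. The stefin A genes *Stfa2l1*, *BC100530* and *Gm5483*, near-identical copies whose reads may be split between them, summed to 0.0491 and 0.312 CPM in mutant pools 1 and 2 at P22 and to 0 in the others. In the P7 counts libraries their sum was 11.6 CPM in mutant pool 5 and 0.669 to 1.95 CPM in the others, and in the rounded TPM libraries 44 and 35 TPM in mutant pools 1 and 4 and 11 to 23 TPM in the others. At P7, *Mmp9*, a gelatinase granule enzyme that osteoclasts also express at high level, was at 157 and 116 TPM in mutant pools 1 and 4 and 28 to 78 TPM in the others. The osteoclast list, summed, was at 868 and 688 TPM in these pools and at 274 to 494 TPM in the others, and *Acp5* at 337 and 260 TPM against 72 to 173 TPM. Their part in the levels of *S100a8* and *S100a9* was not tested.

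Markers of other cells were compared in each library with the granule genes. The summed level of 6 erythroid precursor genes (*Slc4a1*, *Rhag*, *Klf1*, *Hemgn*, *Car1* and *Trim10*) was 27.2 and 19.2 CPM in mutant pools 1 and 2 at P22, and 5.18 to 6.60 CPM in the others. At P7 it was 106 CPM in mutant pool 5 and 3.36 to 7.38 CPM in the others. The pools that were high in granule genes were thus also high in the sum of these 6 genes, in both sets in counts. *Alas2*, on the erythroid list but left out of this sum, did not separate the genotypes. At P22 it was at 22.6 to 43.15 CPM in the controls and 22.6 to 45.7 CPM in the mutants, a log2 difference of -0.12 (SE 0.261). In the P7 counts libraries it was at 9.77 to 19.2 CPM against 9.10 to 28.1 CPM. Of the 11 erythroid genes examined, 6, 9 and 1 were above every control in mutant pools 1, 2 and 3 at P22, and 9 in mutant pool 5 at P7, while *Hbb-bs* was at or near 0 CPM throughout. Among all genes tested, 32.9%, 34.7% and 32.7% were above every control in these P22 pools and 33.3% in pool 5. The globins did not follow at P22, with sums of 1250 to 2333 CPM at P22 over all pools and the highest sum in mutant pool 2 close to that of control pool 2 (2317 CPM). At P7 they summed to 1323 CPM in mutant pool 5 and to 391 to 1171 CPM in the others. In the rounded TPM libraries the erythroid precursor sum was 3 to 4 TPM in every pool. Of the 8 erythroid genes tested at P22 only *Slc4a1*, the red cell anion exchanger, was called, with 4.93, 3.65 and 3.27 CPM in the controls and 18.7, 13.8 and 3.35 CPM in the mutants and a log2 difference of 1.601 (SE 0.463, adjusted p = 0.0477 in edgeR). Its call was lost in DESeq2 (adjusted p = 0.0908) and in 5 of the 6 fits without 1 library, and the difference was -0.25 without mutant pools 1 and 2. In the rounded TPM libraries *Hbb-bs* was called lower (log2 difference -1.43, SE 0.363, adjusted p = 0.0464 in limma), with 20, 21, 14 and 8 TPM in the controls and 8, 10, 3 and 3 TPM in the mutants. No gene was called in this set, and so *Hbb-bs* lost its call, with the replicate block, with the limit lowered to 1 TPM, with no filter and in 6 of the 8 fits without 1 library.

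In the sets in counts, the B lineage list also had its highest sums in the pools with high granule genes, though only slightly so in mutant pool 2. Its sum was 10.9 and 7.05 CPM in mutant pools 1 and 2 at P22 against 4.89 to 6.07 CPM in the others. In the P7 counts libraries it was 27.0 CPM in mutant pool 5 against 9.39 to 12.5 CPM. In the rounded TPM libraries it was highest in control pool 1 (22 TPM), where the granule sum was lowest (36 TPM). It was 6 and 10 TPM in mutant pools 1 and 4, where the granule sums were highest (84 and 90 TPM). Of its 12 genes, 9, 7 and 3 were above every control in mutant pools 1, 2 and 3 at P22, and 12 in mutant pool 5 at P7. For this list and those below, the shares over all genes tested were 32.9%, 34.7% and 32.7% in these P22 pools and 33.3% in pool 5. The macrophage list was at 249 and 254 CPM in mutant pools 1 and 2 at P22, against 189 to 204 CPM in the others. There 12, 11 and 5 of its 13 genes were above every control in mutant pools 1, 2 and 3. At P7 it was at 483 CPM in mutant pool 5 and at 370 to 438 CPM in the others, and 8 of its 13 genes were above every control in pool 5. The platelet list was at 130.3 CPM in mutant pool 5 and at 81.0 to 99.8 CPM in the other P7 pools in counts, with 8 of its 8 genes above every control in pool 5. At P22 it was at 25.4 to 26.5 CPM in the 3 mutant pools, with pool 3 the highest, and at 17.6 to 22.3 CPM in the controls. There 6, 5 and 6 of its 8 genes were above every control in mutant pools 1, 2 and 3. In the rounded TPM libraries the macrophage list was at 544 and 469 TPM in mutant pools 1 and 4 and at 409 to 528 TPM in the others. The platelet list was there at 146 and 129 TPM, against 118 to 139 TPM. The most abundant macrophage gene, *Csf1r*, was at 42.8 to 46.2 CPM in the P22 controls and 42.9 to 58.2 CPM in the mutants. Mast cell, eosinophil and T cell genes were low, with *Tpsb2* at 0.0283 to 0.279 CPM, *Epx* at 0.144 to 0.452 CPM and *Cd247* at 1.52 to 3.54 CPM at P22.

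The osteoblast genes had no like pattern at P22. Their list summed to 474, 247 and 184 CPM in the controls and to 298, 323 and 196 CPM in the mutants. The osteoclast list summed to 26.7, 24.4 and 20.9 CPM in the controls and to 29.6, 28.9 and 27.1 CPM in mutant pools 1 to 3. All mutant pools, pool 3 among them, were thus above the controls in the osteoclast sum. At P7, mutant pool 5 had the highest osteoblast (2651 CPM) and osteoclast (408 CPM) sums of the set in counts. Control pool 6 followed with 2193 and 384 CPM. Its granule sum was 9.72 CPM, against 66.3 CPM in mutant pool 5 and 6.58 to 9.25 CPM in the others. The cochlear lists followed genotype at P22 rather than the granule level. The hair cell list summed to 239 to 261 CPM in the controls and to 321, 371 and 404 CPM in mutant pools 1 to 3, and the spiral ganglion list to 13072 to 14956 CPM against 9646 to 10982 CPM. Of 8 hair cell genes 2 were called higher (*Otof* and *Ocm*), and of 8 spiral ganglion genes 1 was called lower (*Nefh*). The part that cells expressing the erythroid, B lineage, macrophage, platelet or bone genes had in the levels of the granule genes was not tested.

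**Figure D5:**
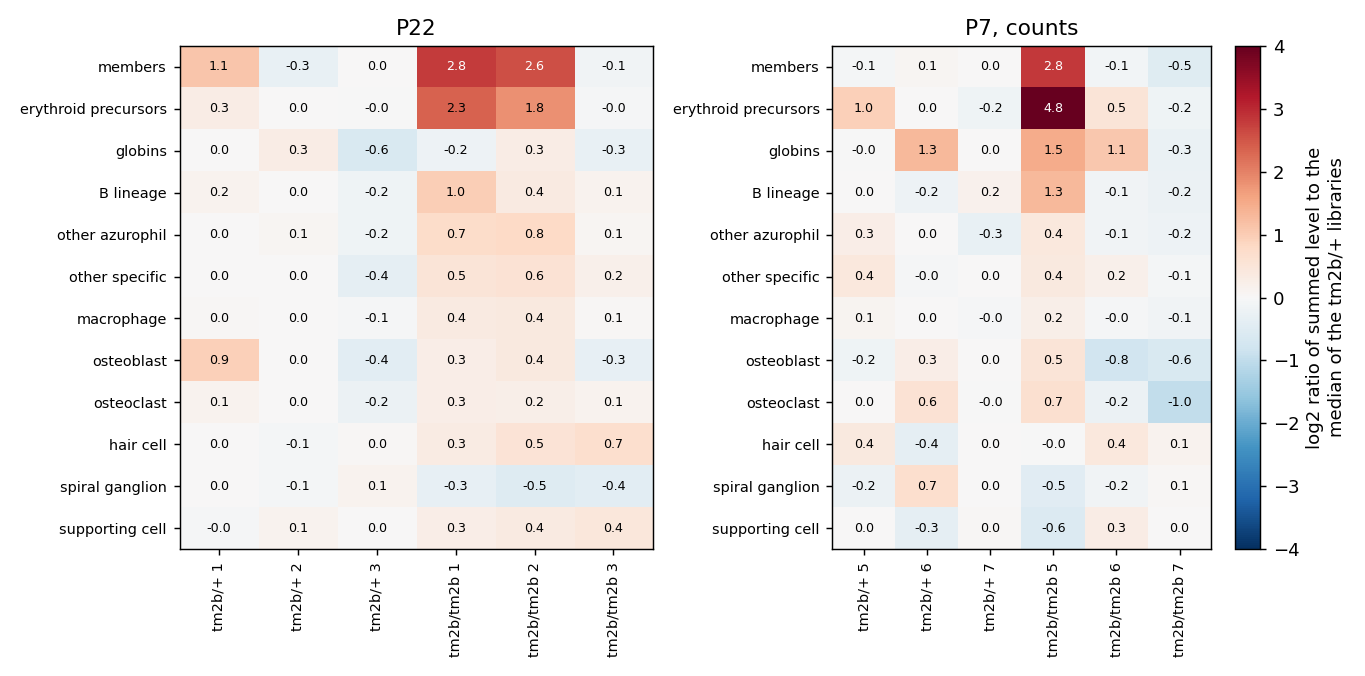
Summed level of each gene list in each library, as the log2 ratio to the median of the tm2b/+ libraries of the same set, at P22 and in the P7 libraries in counts. Red is above and blue below that median, and the numbers in the cells are the ratios. Granule members and erythroid precursors are high in mutant pools 1 and 2 at P22 and in mutant pool 5 at P7, and globins are not set apart in the same way at P22. The B lineage sum is also highest in these pools, but only slightly so in mutant pool 2 at P22 (7.05 CPM, against at most 6.07 CPM in the controls).

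The genes vary together in a way that rests on the same few pools. At P22 and in the P7 counts libraries, the libraries fell apart into pools of high and low level, so correlations across libraries are not given for the pairs of granule genes. In the 8 rounded TPM libraries, *S100a9* had a Pearson r of 0.924 and a Spearman rho of 0.929 with the mean of the centred log2 values of the 6 other granule genes that averaged 1 TPM or more, and *Camp* an r of -0.03 and a rho of -0.02. These are descriptions over 8 libraries. The r of *S100a9* was 0.806 without the 2 libraries farthest from the median. The 21 pairs of the 7 genes had r between -0.649 and 0.909, with a median of 0.26, on values most of which are whole numbers under 6. Both extremes are pairs with *Mmp8*, which was at 1 TPM in every library and so varied only through the TMM scaling. *Mmp8* is also in the mean of the 6 other genes above. Among the pairs without *Mmp8*, r ran from -0.605 (*Camp* and *Lcn2*) to 0.824 (*Ngp* and *S100a9*).

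By the same measure, the 10 other genes most like the mean of the granule genes at P22 were *Slfn2*, *Slc4a11*, *Slc4a1*, *Chil3*, *Ccna2*, *Frmd8*, *Fkbp14*, *Cnp*, *Nasp* and *Gabpb1*. Their r was 0.973 to 0.986 over 6 libraries, of 14007 genes. Without the 2 libraries farthest from the median it was 0.767 (*Nasp*) to 0.991 (*Fkbp14*). In the P7 counts libraries they included *Nxpe2*, *Rhd*, *Stfa1*, *Ddx39b*, *Ikzf1*, *Myo10*, *Sart3*, *Trim10* and *Trim26*, resting on pool 5. In the rounded TPM libraries they were *Bloc1s6*, *Srpx2*, *Sult1a1*, *Tjap1*, *Syt16*, *Impdh2*, *Eif3j2*, *Mdm1*, *Ptpn2* and *Prim2*, of which none is on the granule or erythroid lists. No gene named here was among the 10 in more than 1 set.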

How the data were processed

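RNA of cochlear pools was sequenced as poly A libraries. Per the labels, the authors used STAR, Salmon and DESeq2 with the mm10 build. The authors deposited estimated counts per gene (P22, and P7 replicates 5 to 7). The deposited values of P7 replicates 1 to 4 are whole numbers that sum to 999644 to 999777 in each library, and were treated as a score (rounded TPM) and not as counts. The 10 genes and the marker lists were chosen with earlier results of these data known. Estimated counts were rounded and fitted with edgeR 4.0.16 (quasi-likelihood, filterByExpr, TMM), and rounded TPM with limma 3.58.1 on log2(TMM-scaled TPM + 1) keeping genes that averaged 5 TPM or more. The 2 P7 batches together were fitted in limma with a batch term, where batch and unit coincide. A call needed adjusted p under 0.05, a log2 fold change over 0.5 and an SE under 0.5. p-values were adjusted over all genes tested. Each replicate is a pool, and p-values measure the spread between pools, which may be technical. Named genes were the 10 members, called genes of the granule and erythroid lists, the most abundant gene of other lists, and the 10 genes most correlated with the members in each set. Genes outside that rule (such as *Chil3*, *Acp5*, the stefins, *Cebpe*, *Mmp9* and the other erythroid precursor genes) were named after their values were seen. The scripts were tested on simulated data. Alternatives were RLE size factors, no low-count filter, DESeq2 1.42.0, no SE limit, the replicate number as a block, other pseudocounts and filters, and each library left out. Same-numbered libraries did not deviate together (correlations from -0.232 to 0.0809), which gives no sign that the numbers pair the samples. It cannot exclude a pairing, since differently numbered libraries were not compared. Some genes of the erythroid list are not reported here.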

Additional observations from a re-analysis of the deposited data

Results flagged for a closer look

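Levels in groups of 4 libraries in rounded TPM were screened for a library far from the others (the gap to its nearest neighbour over the range of the group above 0.829). This was done for 22 groups, of which chance flags about 1 in 20. *S100a9* in tm2b/+ pool 1 was at 7 TPM, against 21 to 22 TPM in the other controls. The other 4 flags were steps of 1 TPM between whole numbers near 0: *Ltf* at 0 TPM in tm2b/tm2b pool 2, *Lcn2* at 2 TPM in tm2b/+ pool 2, *Elane* at 1 TPM in tm2b/+ pool 4 and *Mpo* at 1 TPM in tm2b/tm2b pool 1.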

How the results depend on the processing

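At P22, 487 genes were called, and 485 to 511 under the RLE, no-filter, DESeq2 and no-SE-limit settings. The members called were 1 by default (*Mmp8*), 1 without the filter (*S100a8*), 0 in DESeq2 and 2 without the SE limit. The replicate number as a block gave 466 genes and 2 members (*S100a8* and *S100a9*). It changed no member call at P7, and whether the numbers pair the samples is not known. Leaving out 1 library gave 270 to 588 genes (270 without control 1, 285 without control 3, 282 without mutant 2) and 0 to 7 members. With P22 mutant pools 1 and 2 left out, an alternative chosen after seeing the data, 29 genes and 0 members were called, the difference of the mean log2 summed level was -0.41 against 1.47, and *Slc4a1* reversed to -0.25. In the P7 counts libraries DESeq2 called 48 genes and edgeR 0. In the rounded TPM libraries 90 genes were called, 293 without TMM scaling, 0 with a mean of at least 1 TPM, 0 without a filter, 0 with the replicate block and 0 to 334 without 1 library. In both P7 batches 0 to 1 genes were called without 1 library. No member was called under any P7 alternative. The summed P7 difference ranged from -0.30 to 1.37 (counts) and -0.16 to 0.25 (rounded TPM) without 1 library, and the P22 difference from 0.94 to 2.41. Depth limits *Elane*, *Mmp8* and *Mpo*, with 0 to 4 counts in some libraries, and rounding limits the TPM values under about 5. The cause of each change was not tested.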
